A study of Mus musculus with 4 samples.

Results

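The proteasome subunit genes of mouse islet cells were described across 4 single-cell RNA libraries. Members were the genes whose symbol is Psma, Psmb, Psmc or Psmd followed by digits, without the immune subunits Psmb8, Psmb9 and Psmb10. The rule found 36 of the 32285 counted genes, 16 of the core particle and 20 of the regulatory particle. The rule itself uses symbols and no measured value, but it was set with earlier results of these data known. All libraries came from islets of wild-type male C57BL6J mice aged 8 weeks, cultured for 24 h and dispersed into single cells with Accutase. Imeglimin, an oral drug for type 2 diabetes, was given at 1 mM against DMSO vehicle, with glucose at either 3.9 or 11.1 mM. This gives 4 conditions with 1 library each. How many mice or cultures went into a library is not given in the sources used here.

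The proteasome is the protease that degrades ubiquitin-tagged proteins. Its barrel-shaped core is built from rings of alpha subunits, which form the gate, and rings of beta subunits, among which Psmb5, Psmb6 and Psmb7 carry the active sites. The regulatory particle caps the core: its Psmc subunits form an ATPase ring that unfolds the substrate, and its Psmd subunits bind and remove ubiquitin. Islet beta cells make large amounts of proinsulin, and the proteasome also degrades proteins that leave the endoplasmic reticulum misfolded.

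The libraries held 7166, 8755, 7444 and 8427 cells after filtering, in an order kept below: first the 3.9 mM libraries and then the 11.1 mM libraries, vehicle before imeglimin at each glucose level. The deposited libraries held between 91245564 and 106092232 unique molecular identifiers (UMIs, counted transcript molecules). Beta-like cells, named from clusters in which 8 of 8 beta-cell markers were detected, numbered 4460, 4208, 4883 and 5375. Between 15 and 24 cell barcodes were shared by each pair of libraries. Clusters of unclear identity, left unnamed, held 17, 23.2, 12.6 and 11.7% of the cells. Beta-like cells of the 4 libraries fell mostly into different clusters. A cluster led by Nupr1 held 4099 cells of vehicle 3.9 mM, and a cluster led by Derl3, Ddit3 and Hspa8 held 3931 of imeglimin 3.9 mM. Clusters led by Mafa and Slc2a2 or by Crybb3 held 2133 and 1713 of vehicle 11.1 mM, and a cluster led by Ttyh1 and G6pc2 held 4063 of imeglimin 11.1 mM. Library and condition cannot be told apart, so no test between conditions was possible. Intervals in brackets are 95% counting intervals, which cover counting error only.

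Promoter windows of 4 members on which the results turn are shown first. Psmb5 and Psmb6 are catalytic subunits that stood far apart under imeglimin at 3.9 mM, Psmd4 had the highest ratio there, and Psma3 the lowest ratio between glucose levels. Each line holds the 150 bases before the RefSeq transcript start on GRCm38.p6, read 5′ to 3′ on the gene's strand. Capitals mark the antioxidant response element pattern TGANNNNGC in Psmb5 and Psmb6, and CCAAT or its reverse complement in Psma3 and Psmd4. Windows lie at chr14:54617996-54618145 (minus strand) for Psmb5, chr11:70525207-70525356 (plus) for Psmb6, chr12:70974473-70974622 (plus) for Psma3 and chr3:95042615-95042764 (minus) for Psmd4.
Psmb5: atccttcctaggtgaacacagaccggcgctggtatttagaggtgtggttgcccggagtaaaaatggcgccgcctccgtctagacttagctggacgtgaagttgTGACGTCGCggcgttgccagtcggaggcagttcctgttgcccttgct
Psmb6: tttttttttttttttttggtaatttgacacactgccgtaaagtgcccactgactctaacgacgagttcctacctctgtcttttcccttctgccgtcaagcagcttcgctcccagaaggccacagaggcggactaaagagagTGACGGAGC
Psma3: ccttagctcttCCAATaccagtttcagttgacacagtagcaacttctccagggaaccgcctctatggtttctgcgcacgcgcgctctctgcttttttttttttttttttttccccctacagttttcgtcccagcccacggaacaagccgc
Psmd4: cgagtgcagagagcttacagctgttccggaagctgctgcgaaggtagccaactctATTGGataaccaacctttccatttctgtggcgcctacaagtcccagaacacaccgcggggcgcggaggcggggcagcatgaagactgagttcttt

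Of the 36 members, 29 had a window of 250 bases before to 50 after a start in the RefSeq table, in 31 windows. TGANNNNGC, the core of sites bound by Nfe2l1 and Nfe2l2, was found on either strand in 58.1% of the member windows and in 41.3% of all 32851 promoter windows. The NF-Y box CCAAT was in 38.7% of member windows and 37.4% of all. The heat shock element GAANNTTC was in 3.23% against 7.86%, only in the Psmb5 window, and the C/EBP-ATF element TGATGNAA in 3.23% against 3.97%. Matches of different motifs were allowed to overlap, and a match of letters is a description, not a binding site.

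In beta-like cells 34 of the 36 members were expressed at 20 CPM or more in at least 1 library. CPM is a gene's UMIs summed over the beta-like cells, relative to the library's total for these cells in the usual unit of that name, with totals scaled by the trimmed mean of M-values (TMM). They count transcript ends and were not divided by length. The exceptions were Psma8, the testis alpha subunit, with 0 UMIs in every library, and Psmb11, the thymus beta subunit, with 0, 2, 0 and 2 UMIs. A count of 0 does not show that a gene was absent, and for ratios it was set to a floor of 3 UMIs. The highest member in every library was Psma3, an alpha ring subunit, at 428, 634, 251 and 257 CPM. It made up 17, 18.4, 12.2 and 12.1% of all core UMIs. The alpha ring subunit Psma7 came next at 345, 396, 231 and 224 CPM. The lowest members were the assembly chaperones that carry a Psmd name: Psmd5 at 23.0 to 35.3 CPM, Psmd9 at 28.3 to 39.9 CPM and Psmd10 at 20.2 to 42.7 CPM.

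The 3 catalytic genes were not expressed evenly. Psmb6, the caspase-like subunit, stood at 169, 303, 133 and 155 CPM. Psmb5, the chymotrypsin-like subunit, stood at 134, 150, 120 and 132 CPM, a much narrower range. Psmb7, the trypsin-like subunit, had the lowest level of the 14 core genes in all 4 libraries, at 62.5, 76.4, 55.6 and 55.2 CPM. On this scale the highest value of each catalytic gene was in the imeglimin 3.9 mM library. Under plain CPM Psmb5 and Psmb7 were lower there than with vehicle at 3.9 mM, with log2 ratios of -0.15 and -0.03. Of the 34 members, all but Psma1, Psmc1, Psmd1, Psmd2, Psmd3 and Psmd9 also had their highest TMM-scaled level there. The share of all genes that did was not computed, but 59.1% of all 6023 genes compared were higher there than with vehicle at 3.9 mM.

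**Figure D1:**
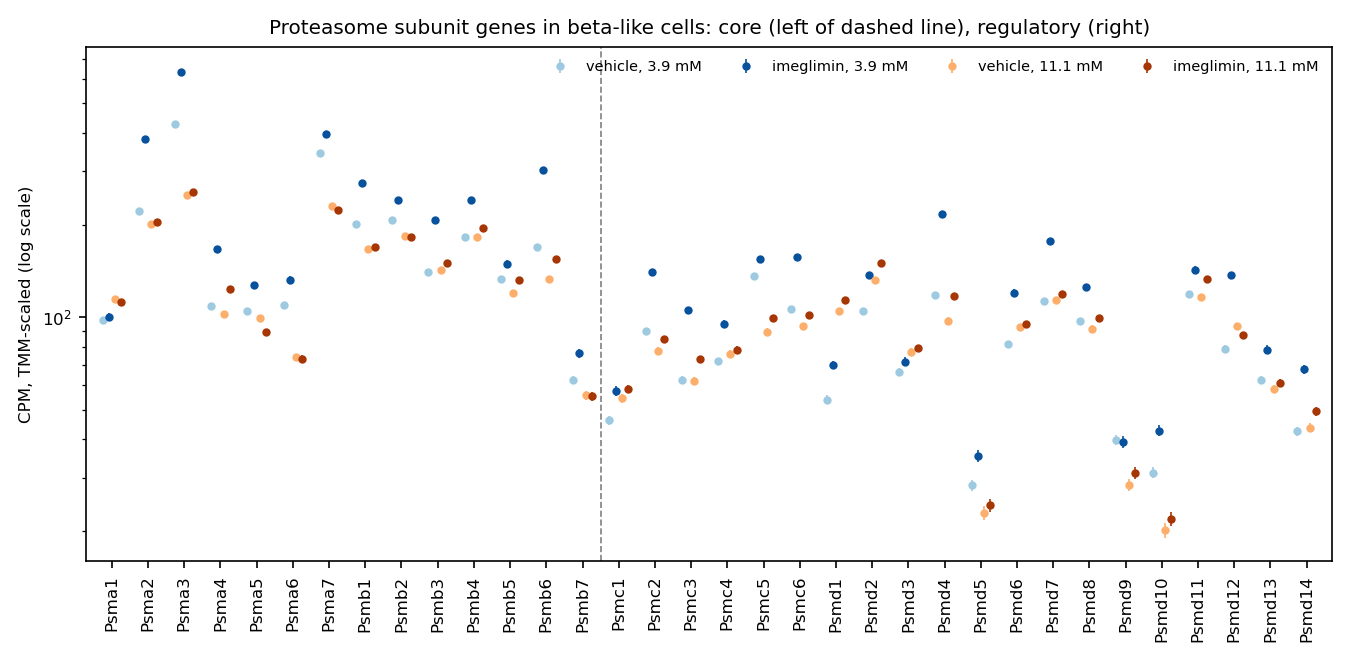
Level of each proteasome gene in beta-like cells (vertical axis, TMM-scaled CPM on a log scale) in the 4 libraries, with 95% counting intervals; core genes are left of the dashed line, regulatory genes right. Psma3 is highest in all 4 libraries, at 251 to 634 CPM, and Psmd1 stands at 105 and 114 CPM at 11.1 mM above 54.0 and 70.0 CPM at 3.9 mM.

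Core and regulatory transcripts did not keep a fixed proportion in beta-like cells. The 16 core genes gave 1.62 UMIs (1.61 to 1.63) for each UMI of the 20 regulatory genes under vehicle at 3.9 mM. The imeglimin 3.9 mM library gave 1.58 (1.57 to 1.59). At 11.1 mM the ratio was 1.33 (1.32 to 1.34) with vehicle and 1.26 (1.25 to 1.27) with imeglimin. Both 11.1 mM libraries were thus below both 3.9 mM libraries, and the imeglimin library was the lower at each glucose level. This ratio is taken within the same cells and does not depend on library scaling. Without Psma3 it was 1.35, 1.29, 1.17 and 1.11, a narrower range in the same order. Without the 3 assembly chaperones it was 1.73, 1.67, 1.39 and 1.33.

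No other endocrine class had the same step between glucose levels. The ratio was 1.36 (1.33 to 1.40), 1.40 (1.37 to 1.43), 1.41 (1.37 to 1.46) and 1.29 (1.26 to 1.33) in alpha-like cells, and 1.53, 1.56, 1.52 and 1.51 in delta-like cells, with overlapping intervals in the latter. Pp-like cells, which express pancreatic polypeptide, had 1.48, 1.37, 1.48 and 1.34, lower in the imeglimin library at either glucose. Endothelial-like cells had 1.29, 1.46, 1.17 and 1.25: the 11.1 mM library was the lower within each treatment, and the imeglimin library the higher at each glucose level. Macrophage-like cells had the highest ratios of all classes, from 1.62 to 1.71, with overlapping intervals. Stromal-like cells had 1.54, 1.51, 1.5 and 1.40. With 1 library a condition, whether the step differs between classes was not tested.

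**Figure D2:**
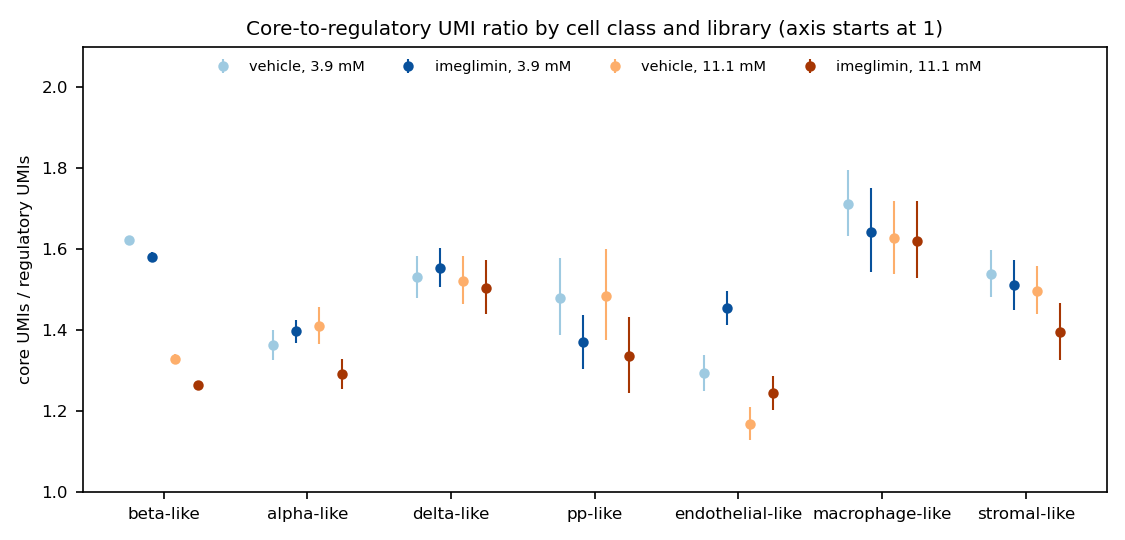
UMIs of the core genes divided by UMIs of the regulatory genes (vertical axis, which starts at 1) by cell class and library, with 95% counting intervals. In beta-like cells the 3.9 mM libraries stand at 1.62 and 1.58 and the 11.1 mM libraries at 1.33 and 1.26, while the 4 delta-like values lie between 1.51 and 1.56.

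Summed levels depended more on scaling than these ratios. In beta-like cells the core genes came to 2517, 3439, 2060 and 2126 CPM and the regulatory genes to 1551, 2175, 1549 and 1682 CPM. A beta-like cell held on average 41.3, 40.2, 28.1 and 27.5 core UMIs and 25.4, 25.4, 21.2 and 21.8 regulatory UMIs, while its median total UMI count was 12120, 10143, 12968 and 12832. Among cells with at least 3000 UMIs, core transcripts made up a median of 0.303, 0.337, 0.166 and 0.185% of a cell's UMIs and regulatory transcripts 0.187, 0.216, 0.135 and 0.152%. Hormone transcripts, mainly insulin, took 17.4, 26.1, 43.7 and 38.3% of all UMIs of these cells. The plain share of any other gene moves with that hormone share. Plain CPM shifted the median of all genes by -0.32 in the 3.9 mM imeglimin comparison and by -0.39 between glucose levels under vehicle (log2). CPM without hormone and mitochondrially encoded genes shifted it by -0.16 and -0.18 in the imeglimin comparisons and by 0.19 and 0.17 in the glucose comparisons. Values below are TMM-scaled log2 ratios, read beside the median of all genes compared in the same way. Each library enters a pair of these comparisons.

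With imeglimin at 3.9 mM glucose, proteasome transcripts of beta-like cells were higher than with vehicle across both particles. The core sum had a log2 ratio of 0.45 (0.44 to 0.46) and the regulatory sum of 0.49 (0.48 to 0.50). Of the 34 members compared, 33 were above 0 and 31 above the all-gene median of 0.11, and the members' own median was 0.40. A ratio of 1.5-fold or more upward was reached by 9 of them and downward by 0, beside 12.9% and 10.5% of all 6023 genes compared, or 23.5% in either direction. The 9 were Psmd4, Psmb6, Psmd12, Psma2, Psmc3, Psmd14, Psmd7, Psmc2 and Psma4. Under plain CPM the sums were only 0.13 and 0.17, and 0 of the 34 reached 1.5-fold, where 28.3% of all genes did in either direction.

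Psmd4, a ubiquitin receptor of the regulatory particle, had the highest ratio at 3.9 mM. Its levels were 118, 217, 97.6 and 117 CPM over the 4 libraries, so that the imeglimin 3.9 mM library stood apart from the other 3. Its log2 ratio with imeglimin was 0.88 (0.84 to 0.92). Psmb6 followed with a ratio of 0.84 (0.81 to 0.87) and Psmd12, a lid subunit, with 0.79 (0.74 to 0.84). Psmd12 stood at 79.2, 137, 93.8 and 87.5 CPM, and its span overlaps another counted gene, Gm11722, on the same strand.

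Within the core the ratios between the imeglimin and vehicle libraries at 3.9 mM were uneven. Psmb6 at 0.84 and Psma2 at 0.78 contrasted with Psmb5 at 0.17 (0.12 to 0.21), Psmb7 at 0.29 and Psma1 at 0.04. In the regulatory particle the lowest were the chaperone Psmd9 at -0.02 and the lid subunit Psmd3 at 0.11. Psma1 stood at 98.0 and 100.5 CPM, Psmd9 at 39.9 and 39.2 CPM and Psmd3 at 66.5 and 71.7 CPM in the vehicle and imeglimin libraries. Plain CPM shifted every ratio of this comparison by -0.32. It turned Psma1 (to -0.28), Psmb5, Psmb7 and Psmd3 negative, and with them every member with a positive ratio smaller in size than that shift.

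By role, the ATPase ring sum had a ratio of 0.47 at 3.9 mM and the non-ATPase subunits 0.52, against 0.24 for the assembly chaperones. The alpha ring stood at 0.45, the beta ring at 0.45 and the 3 catalytic genes at 0.53. The Psmd-named chaperones thus had the smallest ratio of these groups.

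At 11.1 mM glucose the imeglimin library was close to vehicle. The core sum had a log2 ratio of 0.05 (0.04 to 0.06) and the regulatory sum of 0.12 (0.11 to 0.13), and both turned negative, to -0.13 and -0.06, without hormone and mitochondrially encoded genes. None of the 34 members was 1.5-fold apart in either direction, against 9.98% of all 5622 genes compared. The members' median was 0.09 beside 0.10 for all genes. The highest were Psma4 at 0.27, Psmd4 at 0.27 and the ATPase Psmc3 at 0.23. The lowest were Psma5 at -0.16, Psmd12 at -0.10 and Psma7 at -0.04. Psma4 stood at 102 and 124 CPM and Psma5 at 99.6 and 89.4 CPM. Among catalytic genes Psmb6 was at 0.22, Psmb5 at 0.14 and Psmb7 at -0.01. Of the 20 regulatory genes 13 were above the all-gene median, and of the 14 core genes 3.

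The imeglimin ratio at 11.1 mM minus that at 3.9 mM was -0.40 for the core and -0.37 for the regulatory sum. It was -0.44 for the alpha ring, -0.36 for the beta ring, -0.34 for the ATPase ring, -0.41 for the non-ATPase subunits and -0.12 for the chaperones. These differences were not tested. Under plain CPM the core ratio was 0.13 at 3.9 mM and 0.01 at 11.1 mM.

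**Figure D3:**
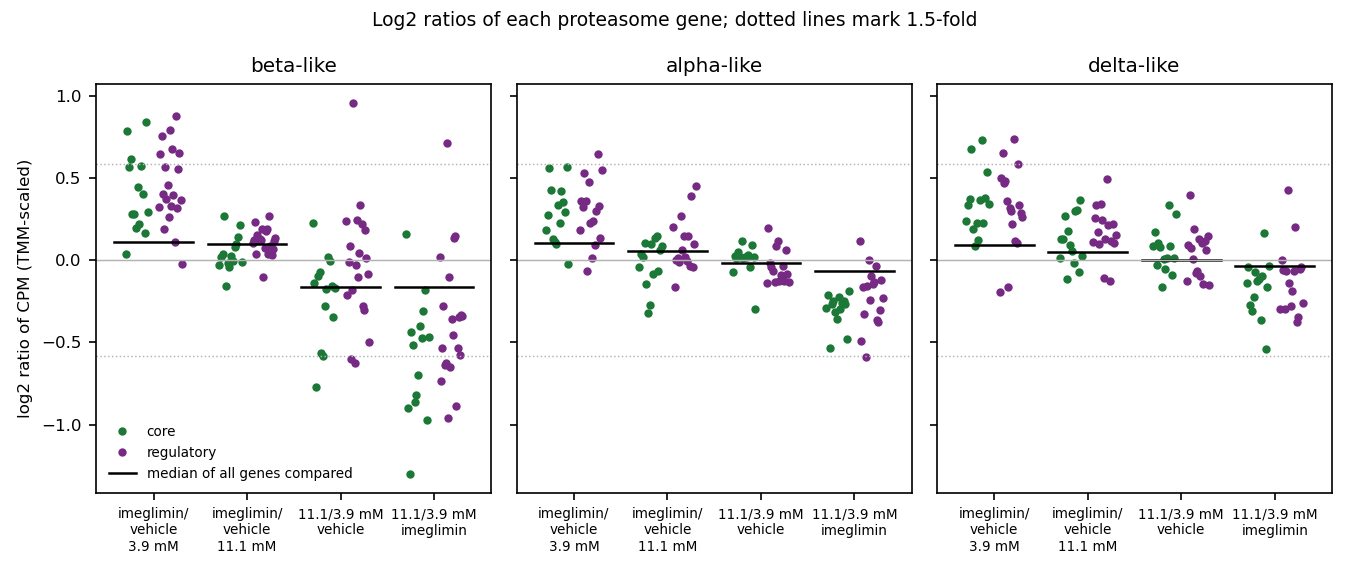
Log2 ratio of each proteasome gene (points, core green, regulatory purple) in 4 comparisons of libraries for beta-, alpha- and delta-like cells; black lines are the median of all genes compared and dotted lines mark 1.5-fold. In beta-like cells imeglimin at 3.9 mM puts 31 of 34 points above the line, and 11.1 mM glucose under imeglimin puts 28 of 34 at or below it.

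Between 11.1 and 3.9 mM glucose under vehicle, the core sum of beta-like cells was lower, while the median of its genes lay at that of all genes compared. The log2 ratio was -0.29 (-0.30 to -0.28) for the core sum and -0.00 (-0.01 to 0.01) for the regulatory sum, with signs of the latter that changed with scaling. The core sum was -0.68 under plain CPM, -0.10 without hormone and mitochondrially encoded genes and -0.21 without Psma3. The median over the 14 core genes was -0.16 and that over all genes also -0.16, with 7 of the 14 above it. The median over the 20 regulatory genes was -0.02, with 13 above the all-gene median. Of the 34 members 1 was at least 1.5-fold higher and 3 at least 1.5-fold lower, against 9.86% and 20.4% of all 5910 genes compared (30.2% together), so both shares were below the background. Under plain CPM 0 were higher and 11 lower, where 52.3% of all genes were 1.5-fold apart in either direction.

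The 1 higher member was Psmd1, the large scaffold of the regulatory base. Its levels in beta-like cells were 54.0, 70.0, 105 and 114 CPM, with both 11.1 mM libraries above both 3.9 mM libraries. The log2 ratio was 0.95 (0.90 to 1.01) under vehicle and 0.71 (0.65 to 0.77) under imeglimin. In alpha-like cells Psmd1 stood at 108, 103, 99.1 and 103 CPM, with ratios of -0.13 and 0.00. In delta-like cells it stood at 110, 98.1, 104 and 132 CPM, with -0.08 and 0.43. In pp-like cells it stood at 92.3, 91.7, 96.2 and 81.8 CPM. Each class was scaled on its own. Psmd1 lies at 86064387 to 86139151 on chromosome 1 (GRCm38) and overlaps Htr2b, a serotonin receptor gene, on the opposite strand. How strand was used in counting is not given in the sources used here.

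Psmd2, the partner scaffold that binds ubiquitin shuttles, was also among the highest, at 105, 138, 132.5 and 151 CPM and a ratio of 0.34 under vehicle. Psmd12 followed with 0.24. Under plain CPM these ratios were -0.06 and -0.15, so that Psmd1 was the only 1 of these 3 above 0 there.

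The 3 lower members under vehicle were Psma3 at -0.77 (-0.80 to -0.74), the chaperone Psmd10 at -0.62 and the ATPase Psmc5 at -0.60. Psmd10, also known as gankyrin, stood at 31.1 CPM with vehicle at 3.9 mM and 20.2 CPM at 11.1 mM. Psmc5 stood at 136 and 89.8 CPM in the same libraries. Psma7 at -0.58 and Psma6 at -0.56 lay just inside 1.5-fold. Psma3 in alpha-like cells was at 264, 390, 267 and 270 CPM, with a glucose ratio of 0.01 under vehicle, and in delta-like cells at 348, 450, 341 and 372 CPM, with -0.03. Its glucose difference under vehicle was thus seen in beta-like cells among these 3 classes, though this was not tested. The gene overlaps 3110056K07Rik on the opposite strand.

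Under imeglimin, the 11.1 mM library was lower than the 3.9 mM library in most members. The core sum had a log2 ratio of -0.69 (-0.70 to -0.68) and the regulatory sum of -0.37 (-0.38 to -0.36). Of 34 members 12 were at least 1.5-fold lower and 1, Psmd1, at least 1.5-fold higher, against 25.3% and 14.8% of all 6054 genes compared (40.1% together). The members' median was -0.47 and that of all genes -0.16. The lowest were Psma3 at -1.30 (-1.33 to -1.27), Psmb6 at -0.97 and Psmd10 at -0.96. Other than Psmd1, the highest were Psma1 at 0.16 and Psmd3 at 0.15. Psmb5 stood at -0.18 and Psmb7 at -0.47, so that among catalytic genes Psmb6 had the widest range again. These ratios share the imeglimin 3.9 mM library with the comparison above, in which most members were high.

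Alpha-like cells also had higher proteasome transcripts with imeglimin at 3.9 mM. The alpha-like cells, 640, 1156, 620 and 858 in number, came mostly from a cluster led by Edn3 and Pdk4 in the vehicle libraries and from a cluster led by Gcg and Ttr in the imeglimin libraries. The core sum stood at 1988, 2475, 2003 and 1986 CPM and the regulatory sum at 1458, 1770, 1419 and 1537 CPM, so the imeglimin 3.9 mM library was the high one. The log2 ratio at 3.9 mM was 0.32 (0.28 to 0.35) for the core and 0.28 (0.24 to 0.32) for the regulatory sum. Without hormone and mitochondrially encoded genes it was 0.07 and 0.03. Of 30 members compared 28 were above 0 and 25 above the all-gene median of 0.10. Only Psmd4, at 0.64, was at least 1.5-fold higher, against 14.6% of all 3306 genes compared, and 0 were lower, against 7.56%. Psma3 and Psmb6, each at 0.56, came next, and Psmd1 at -0.07 and Psmb7 at -0.02 were lowest.

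At 11.1 mM 0 of 30 members were 1.5-fold apart in alpha-like cells with imeglimin, against 11% of all genes compared. The core ratio was -0.01 and the regulatory ratio 0.12, the latter -0.00 under plain CPM. Psmd8 at 0.45 and Psmd4 at 0.39 were highest, and Psma6 at -0.32 and Psma7 at -0.27 lowest. Between glucose levels under vehicle, alpha-like cells had core and regulatory ratios of 0.01 and -0.04, and 0 of 29 members were 1.5-fold apart, against 1.39% of all genes. Psmc3 at 0.20 and Psma6 at 0.12 were highest there, with Psmb7 at -0.30 and Psmc2 at -0.14 lowest. Under imeglimin the ratios were -0.32 and -0.20, beside an all-gene median of -0.07. All 14 core genes were below 0, where 39.9% of all 3192 genes compared were above 0. Psmc5, at -0.59, was the 1 of 31 members at least 1.5-fold lower, against 3.92% of all genes, and 0 were higher, against 2.44%. Psma3 at -0.53 came next. Psmc1 at 0.11 and Psmd1 at 0.00 were highest.

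Delta-like cells, 309, 436, 333 and 291 in number and from 1 cluster, followed a like course at 3.9 mM. The core sum stood at 2477, 3148, 2564 and 2809 CPM and the regulatory sum at 1618, 2024, 1684 and 1866 CPM. Imeglimin at 3.9 mM gave log2 ratios of 0.35 (0.30 to 0.39) and 0.32 (0.27 to 0.37), which were 0.37 and 0.35 under plain CPM and 0.25 and 0.23 without hormone and mitochondrially encoded genes. In contrast to beta-like cells, the hormone share was lower with imeglimin here, 12% against 18.6%. Of 31 members 4 were at least 1.5-fold higher, against 7.46% of all 3485 genes compared: Psmd14, a deubiquitinase, at 0.74, Psmb3 at 0.73, Psma4 at 0.68 and Psmc3 at 0.65. None was lower by that fold, against 6.11% of all genes. Psmc1 at -0.19 and Psmd1 at -0.16 were lowest.

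In delta-like cells at 11.1 mM the imeglimin ratios were 0.13 and 0.15, and 0 of 30 members were 1.5-fold apart, against 7.34% of all genes. Psmd14 at 0.50 and Psmb6 at 0.36 were highest, and Psmd3 at -0.13 and Psma5 at -0.11 lowest. Between glucose levels under vehicle the ratios were 0.05 and 0.06, with 0 of 30 members 1.5-fold apart against 4.77%. Psmc3 at 0.40 and Psmb3 at 0.33 were highest, and Psma6 at -0.16 and Psmd8 at -0.15 lowest. Under imeglimin they were -0.16 and -0.12, with 0 of 30 apart against 11.5%. Psmd1 at 0.43 and Psmd2 at 0.20 were highest there, and Psmb5 at -0.54 and Psmd3 at -0.37 lowest.

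Cells of non-endocrine classes expressed the members as well. Core sums were 4375, 5058, 3976 and 4125 CPM in endothelial-like cells, 5457, 5169, 4861 and 4656 CPM in stromal-like cells and 3902, 3555, 3545 and 3182 CPM in macrophage-like cells. In pp-like cells they were 2101, 2242, 2099 and 1902 CPM. Each class was scaled on its own, so levels between classes are set side by side and not compared by a fold. With imeglimin at 3.9 mM the core ratio was 0.21 in endothelial-like, 0.09 in pp-like, -0.08 in stromal-like and -0.13 in macrophage-like cells. Psmb11 gave at most 1 UMI in a library of these classes and Psma8 at most 8.

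Within beta-like cells the summed levels differed by cluster. The members were left out of the genes used for clustering. In the vehicle 3.9 mM library the core sum was between 2527 and 2658 CPM in its 3 clusters of at least 50 cells. In the imeglimin 3.9 mM library it was 3282 CPM in 209 cells of the Nupr1-led cluster and 3472 CPM in 3931 cells of the Derl3-led cluster. On this scale, imeglimin cells placed with most vehicle cells thus stood above the vehicle cells of that cluster. Each cluster was scaled by the TMM factor of all beta-like cells of its library, 1.22 for vehicle and 0.98 for imeglimin at 3.9 mM. The difference between libraries within a cluster therefore includes that of the factors. In the Nupr1-led cluster core genes gave 170606 of 55391083 UMIs with vehicle and 6012 of 1876454 with imeglimin at 3.9 mM. On plain CPM the imeglimin share was thus only slightly higher, and most of the core difference given here is that of the factors. Other scalings within clusters were not tested. In the vehicle 11.1 mM library the large clusters lay between 1820 and 2236 CPM. A cluster led by Dapl1 was low, at 993 CPM in 60 cells with vehicle and 1082 CPM in 61 cells with imeglimin at 11.1 mM.

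**Figure D4:**
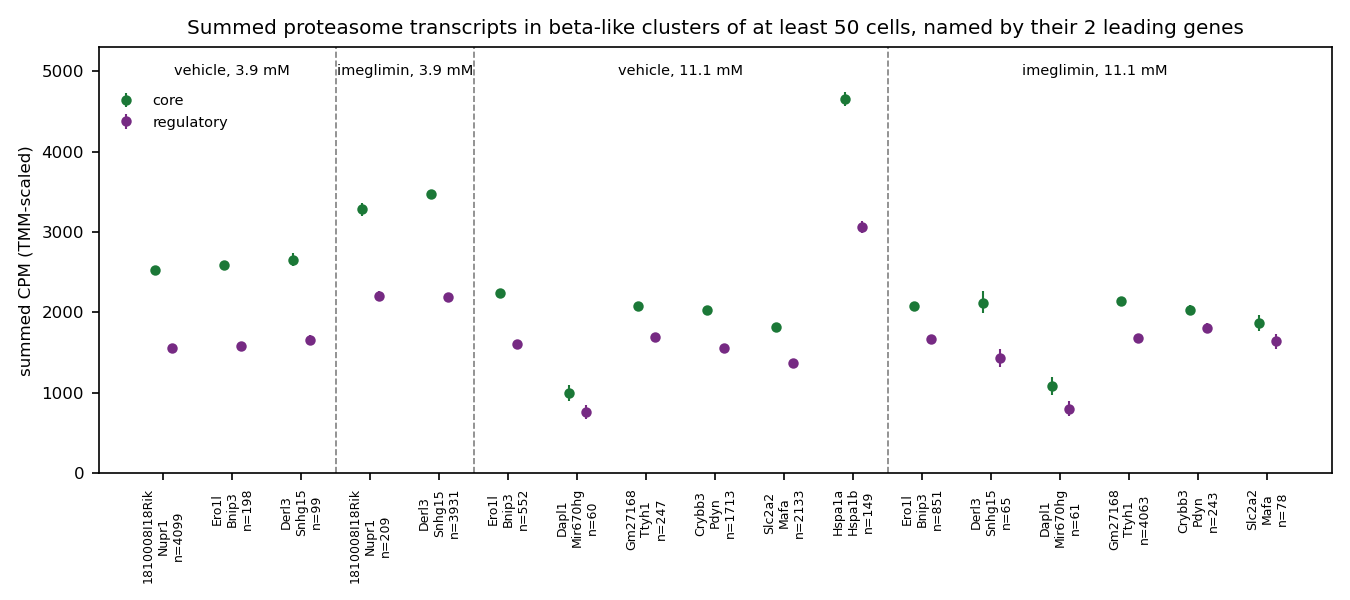
Summed core (green) and regulatory (purple) transcripts in TMM-scaled CPM, with 95% counting intervals, for each beta-like cluster with at least 50 cells in a library; clusters are named by their 2 leading genes and n is the number of cells. The heat shock cluster, led by Hspa1a and Hspa1b, stands at 4656 and 3062 CPM, above every other cluster of the figure.

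The highest level was in a cluster of 149 cells led by Hspa1a, Hspa1b, Hspb1 and Hmox1, found in the vehicle 11.1 mM library only. Against the other 4734 beta-like cells of that library, its core sum was 4318 against 1821 CPM and its regulatory sum 2839 against 1384 CPM, on plain CPM. These are 2.37-fold and 2.05-fold, and 2.20-fold and 1.90-fold without hormone and mitochondrially encoded genes. All 14 core genes compared and 17 of the 20 regulatory genes were at least 1.5-fold higher, while 13.5% of all genes compared were and the all-gene median was -0.20. Both groups come from 1 library, and a cluster against the rest is a description. Median UMIs were 15044 per cell in the cluster.

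Psmb3, a beta ring subunit, stood furthest apart in these cells, at 467 against 120 CPM and a log2 ratio of 1.96 (1.87 to 2.05). Psmd14 at 1.53, Psmd4 at 1.52, Psma5 at 1.5 and Psmc2 at 1.49 followed. The 3 catalytic genes were close together, at 1.19 for Psmb5, 1.04 for Psmb6 and 1.04 for Psmb7. The exceptions were Psmd6 at 0.53, Psmd10 at 0.21 and Psmd9 at 0.04. The intervals of Psmd9 (-0.33 to 0.39) and Psmd10 (-0.21 to 0.60) include 0. The core-to-regulatory ratio in the cluster was 1.52 (1.48 to 1.57), above the 1.30 and 1.32 of the library's largest clusters. Without this cluster and the hypoxia-led cluster the ratio of the whole library was 1.31 in place of 1.33.

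**Figure D5:**
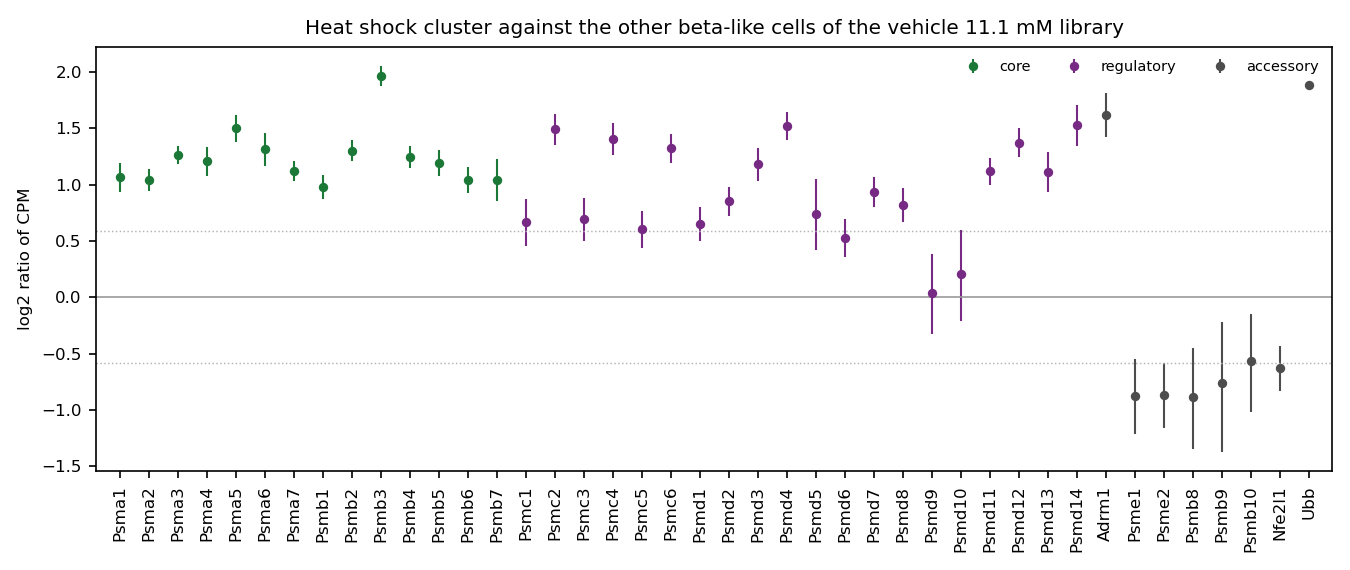
Log2 ratio of CPM between the 149 cells of the heat shock cluster and the other beta-like cells of the vehicle 11.1 mM library, with 95% counting intervals, for the 34 members and 8 accessory genes; dotted lines mark 1.5-fold. All 14 core genes lie above the upper dotted line, and Psmb8, Psmb9, Psme1 and Psme2 lie below 0.

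The accessory genes of the pathway, 35 of which are reported, did not all follow the subunits in that cluster. Adrm1, the ubiquitin receptor missed by the name rule, was at 1.62, and the polyubiquitin gene Ubb at 1.88. Zfand2a, a heat-inducible proteasome partner, was at 3.30. Zfand5 at 1.44, Ubqln1 at 1.24 and Ufd1 at 1.05 were also at least 1.5-fold higher, where 13.5% of all genes compared were. Ube3c at -1.06 and Ubqln2 at -0.85 were at least 1.5-fold lower, as were Psmb8, Psmb9, Psme1, Psme2 and Nfe2l1, given below. No all-gene share is given here for that direction, and the all-gene median was -0.20. Sem1, a small lid subunit, was at 0.05. The immune subunits Psmb8, Psmb9 and Psmb10 stood at -0.88, -0.76 and -0.57, and the activator genes Psme1 and Psme2 at -0.87 and -0.86. Psmb9 rested on 27 UMIs in the cluster. Nfe2l1, the transcription factor known to drive proteasome genes, was at -0.63.

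In beta-like cells with imeglimin at 3.9 mM, the accessory list had a median of 0.23, beside 0.11 for all genes. Of its 35 genes 7 were up by 1.5-fold or more and 0 down, against 12.9% and 10.5% of all genes. Those higher were the proteasome-bound deubiquitinase Uchl5 at 1.42, Ubb at 1.28, the transcription factor Nfe2l2 at 0.99, Adrm1 at 0.77, the core assembly chaperone Psmg3 at 0.75, Zfand2a at 0.64 and Akirin2, a nuclear import factor for proteasomes, at 0.60. Uchl5 stood at 26.4, 70.7, 24.7 and 33.2 CPM and Adrm1, its docking subunit, at 32.1, 54.9, 35.4 and 34.5 CPM. Ubb stood at 1931, 4700, 2038 and 1605 CPM. In each of these the imeglimin 3.9 mM library stood above the other 3. Pomp, the core maturation factor, was at 219, 309, 240 and 254 CPM with a ratio of 0.50, and Sem1 at 424, 496, 268 and 359 CPM with 0.23. Nfe2l1 was at -0.19, from 180 to 158 CPM, below the all-gene median of 0.11. Its activating protease Ddi2 was at 0.03.

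With imeglimin at 11.1 mM, 3 of 32 accessory genes were at least 1.5-fold higher: Zfand2a at 1.12, Psmg4 at 0.85 and Psmg2 at 0.65. Psmb10 at -0.90 and Psmb8 at -0.75 were lower, against 9.98% of all genes apart in either direction. Psmb8 stood at 38.3, 52.3, 33.7 and 20.1 CPM, Psmb9 at 40.3, 29.6, 19.0 and 11.4 CPM and Psmb10 at 36.7, 32.2, 28.4 and 15.3 CPM. In macrophage-like cells, scaled on their own, Psmb8 stood at 252 to 404 CPM and Psmb9 at 117 to 241 CPM. The part of free RNA in these low values was not tested. Nfe2l1 was at 0.56, Ddi2 at 0.39, Sem1 at 0.42, Pomp at 0.08 and Adrm1 at -0.04.

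Between glucose levels under vehicle, of 34 accessory genes 3 stood 1.5-fold or more above and 9 below, against 9.86% and 20.4% of all genes. Higher were Vcp, the ATPase that extracts ubiquitinated proteins, at 1.02, the ligase Ube3c at 0.61 and the activator Psme4 at 0.60. Vcp stood at 149, 128, 301 and 311 CPM, with both 11.1 mM libraries above both 3.9 mM libraries. Lower were the core assembly chaperones Psmg2 at -1.71, Psmg1 at -1.25 and Psmg4 at -1.25, with Psmb9 at -1.08, Zfand2a at -1.03, Ufd1 at -0.95, Psme1 at -0.79, Akirin2 at -0.75 and Sem1 at -0.66. Psmg2 stood at 74.9, 83.1, 22.9 and 35.9 CPM. These 3 core assembly chaperones thus stood lower than any core subunit in this comparison. Not all core assembly factors did: Pomp stood at 219 CPM at 3.9 mM and 240 CPM at 11.1 mM under vehicle. Psmg3 was below the minimum of 20 CPM in both vehicle libraries and was not compared here. Under imeglimin 4 of 35 were higher and 17 lower, against 14.8% and 25.3% of all genes, with Vcp at 1.29 and Psme4 at 0.95 highest. The other higher ones were Uba1, the ubiquitin-activating enzyme, at 0.74 and Ecpas, a proteasome adaptor, at 0.70. The lower ones were Ubb at -1.55, Psmb8 at -1.38, Psmb9 at -1.37, Akirin2 at -1.22, Psmg2 at -1.21, Uchl5 at -1.09, Psmb10 at -1.08, Nfe2l2 at -1.02, Ufd1 at -0.93, Psmg1 at -0.90, Psme2 at -0.81, Zfand5 at -0.75, Psmg3 at -0.72, Adrm1 at -0.67, Psme1 at -0.64, the shuttle Ubqln1 at -0.62 and the inhibitor Psmf1 at -0.60. These ratios share the imeglimin 3.9 mM library with the imeglimin comparison at that glucose level.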

How the data were processed

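Single-cell RNA was measured in 4 islet libraries made with 10x 3′ reagents, per the labels' protocols. Per the submitters' processing notes, the authors used mm10 and Cell Ranger 6.0.2, and they deposited raw UMI counts for each gene in each cell barcode. How strand and reads on more than 1 gene were treated is not given in the sources used here. The members and the lists were chosen with earlier results of these data known.

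Kept barcodes had 1000 UMIs and 500 genes or more and a mitochondrial share of UMIs up to 20%. Cells were clustered without the members (scanpy 1.11.5, 2000 variable genes, 30 components, 15 neighbours, Leiden resolution 1) and named "-like" from markers alone. Names are rebuilt here and may differ from the authors' own. Alpha-, delta- and pp-like cells with over 3% of UMIs from insulin genes were left out, a limit chosen after the data were seen. This took 11 to 234 alpha-like and 203 to 297 delta-like cells per library, and at most 44 cells of a class and library lay between 2.5 and 3.5%. The doublet caller did not work (it called 1, 1, 4 and 1 cells), so doublets were kept and an alternative left out the highest scores at the expected rates of 5.73 to 7.00%.

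UMIs were summed per class and library and scaled by TMM (edgeR 4.0.16). Genes were compared at 20 CPM or more in either library in beta-like cells and at 50 CPM in alpha- and delta-like cells. Sums have exact Poisson intervals and ratios exact conditional binomial (Clopper-Pearson) intervals, both for counting error only. The interval step was tested on simulated counts. With 1 library a condition no p-value is given, and a fold of 1.5 is a measure of size. Named were the catalytic genes, the 3 highest and 3 lowest members per comparison in beta-like cells and 2 of each in alpha- and delta-like cells. Of the accessory list, Nfe2l1, Ddi2, Pomp, Psmb8, Psmb9, Psmb10, Adrm1, Sem1 and genes 1.5-fold apart were named; 3 genes of that list are not reported here and enter no count. Psma7, Psma2, Psmb3 and others outside this rule were named after their values were seen. Gene spans came from GENCODE vM21 on GRCm38, in which all 36 members were found. In it 10 members overlap a counted gene on the opposite strand and 2 on the same strand, Psma2 (AW209491) and Psmd12 (Gm11722). Of 4 annotated pseudogenes named after members 0 were counted. Promoter sequences are from RefSeq.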

Additional observations from a re-analysis of the deposited data

Results flagged for a closer look

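Among the 36 members and 35 accessory genes, 4 had imeglimin log2 ratios in beta-like cells that pointed in opposite directions at the 2 glucose levels. Their counting intervals lay on opposite sides of 0, and 1 ratio or both were at least 1.5-fold. The share of all genes that meet this rule was not computed. None of these differences could be tested, since each condition has 1 library. The only one of the 36 members among them was Psmd12, at 0.79 at 3.9 mM and -0.10 at 11.1 mM, a difference of -0.89. Its span overlaps Gm11722 on the same strand. The polyubiquitin gene Ubb had 1.28 and -0.34, a difference of -1.63. The immune subunit Psmb8 had 0.45 and -0.75, a difference of -1.19, at levels of 20.1 to 52.3 CPM beside 252 to 404 CPM in macrophage-like cells, which were scaled on their own. The core assembly chaperone Psmg4 had -0.24 and 0.85, a difference of 1.09.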

How the results depend on the processing

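Values are log2 ratios in beta-like cells for imeglimin at 3.9 mM, imeglimin at 11.1 mM, glucose under vehicle and glucose under imeglimin, in this order. Under plain CPM the core sum gave 0.13, 0.013, -0.68 and -0.80 and the regulatory sum 0.17, 0.086, -0.40 and -0.48, with 0, 0, 11 and 17 members 1.5-fold apart, beside 28.3, 9.64, 52.3 and 42.7% of all genes. The mean of per-cell CPM gave 0.13, 0.05, -0.72 and -0.80 and 0.19, 0.10, -0.39 and -0.49, with 0, 0, 15 and 17 members beside 27.4, 9.80, 50.4 and 42.1% of all genes. DESeq2 size factors gave 0.49, 0.021, -0.25 and -0.72 and 0.53, 0.094, 0.039 and -0.40, with 13, 0, 2 and 14 members beside 24.8, 9.70, 29.0 and 40.5%. CPM without hormone and mitochondrially encoded genes gave 0.29, -0.13, -0.10 and -0.52 and 0.33, -0.057, 0.18 and -0.20, with 5, 0, 1 and 8 members beside 23.6, 11, 27.8 and 37.9%. Keeping cells of 10000 UMIs or more with a mitochondrial share up to 5% gave 0.44, -0.0088, -0.22 and -0.67 and 0.46, 0.076, 0.052 and -0.33. At Leiden resolution 0.5 the core sum for glucose under vehicle was -0.30. Without the highest doublet scores the imeglimin sums at 11.1 mM were 0.058 and 0.13. Without the heat shock and hypoxia clusters, an alternative added after seeing the data, the sums were 0.45, 0.11, -0.37 and -0.71 and 0.48, 0.15, -0.063 and -0.39. This kept 4207 of the 4208 imeglimin 3.9 mM cells and 4262 of the 4460 vehicle 3.9 mM cells, so it could hardly change that comparison. The Derl3-led cluster, with Ddit3, Hspa8 and Dnajb1 among its leading genes, was kept, and leaving it out was not tested. Without Psma3, also added, the core sum was 0.42, 0.05, -0.21 and -0.59, and without the assembly chaperones the regulatory sum was 0.50, 0.12, 0.025 and -0.36. With no minimum level the counts were 9, 0, 4 and 13, as with it, beside 38.8, 27.1, 40.9 and 46.8% of all genes; Psma8 and Psmb11, at or under the floor of 3 UMIs in every library, were given no fold. Across these alternatives the core sum stayed above 0 with imeglimin at 3.9 mM and below 0 in both glucose comparisons.

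Single named members also turned in sign, listed where the counting interval of the main ratio excluded 0. With imeglimin at 3.9 mM, plain and per-cell CPM gave Psmb5 -0.15 and -0.15, Psmb7 -0.030 and -0.024, and Psmd3 -0.21 and -0.15. Psma1, whose interval included 0, also fell to -0.28 and -0.25. Without hormone and mitochondrially encoded genes Psmd3 was -0.053 there, Psmb5 was -0.033 with imeglimin at 11.1 mM, and Psmb5 and Psmb7 were 0.031 and 0.018 for glucose under vehicle. Without the heat shock and hypoxia clusters Psma7 was 0.020 with imeglimin at 11.1 mM. For glucose under vehicle, plain and per-cell CPM gave Psmd12 -0.15 and -0.13 and Psmd2 -0.056 and -0.073. Psmd3 was -0.0069 for glucose under imeglimin on per-cell CPM. The causes were not tested beyond the change of scale or of cells that each alternative makes.

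No library was left out in turn, since each condition holds 1. No paired analysis was possible because no condition has replicates. Psma8 and Psmb11 were too low for any ratio, and the chaperones Psmd5, Psmd9 and Psmd10 rest on 1345 to 2916 UMIs per library in beta-like cells. Fewer captured transcripts and a larger share of other transcripts cannot be told apart in these relative values.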
